A study of Arabidopsis thaliana with 9 samples.

Results

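The comparison is between Arabidopsis thaliana seedlings that carry CONSTANS (CO) under the 35S promoter (35S:CO) and wild-type Col-0 seedlings, with 3 samples of each genotype, 6 of the 9 samples in the series. The 35S promoter of cauliflower mosaic virus is active in most tissues, so CO is made broadly in this line. The labels give Col-0 as the background of all genotypes. The remaining 3 samples are SUC2:CO seedlings, labelled SUC2:HA:CO (co-10), in which the SUC2 promoter, active in phloem companion cells, drives an HA-tagged CO in the co-10 mutant. They entered the fit, and their values are given only in the last paragraph. All seedlings were whole, grown in soil at 22 °C in long days (16 h light, 8 h dark), and taken 7 days after germination at zeitgeber time 14, which is 14 h after lights on. No label says whether the 3 samples of a genotype came from separate plantings, or how many independent transgenic lines 35S:CO stands for, so p-values measure the spread between these samples. All 32833 genes of the count table were considered, 19149 had enough reads to be tested, and the description leaves aside the clock and flowering genes, of which 67 were tested and 37 called.

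CO is a B-box zinc finger protein with a CCT domain, the module through which it and the NF-Y proteins contact CCACA-containing DNA, and it is known for switching on the florigen gene FT at the end of long days. B-box proteins more widely act in light signalling, in concert with HY5 and other bZIP factors that bind G-boxes. Abscisic acid (ABA) acts through PYR/PYL receptors, which inhibit clade A phosphatases and so release SnRK2 kinases that phosphorylate bZIP factors. Those bZIP factors bind ABA-responsive elements, whose core contains the same ACGT as a G-box.

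The targeted gene was checked first. CO (AT5G15840, on chromosome 5) had 576, 658 and 676 CPM in the 35S:CO samples, against 9.54, 10.1 and 7.97 CPM in the Col-0 samples, where CPM is the gene's count scaled to the size and composition of its library. Its log2 fold change was 6.11 ± 0.15 (SE), with an adjusted p of 2.14e-08 in edgeR's quasi-likelihood test. Gene-level counts do not separate transcripts of the transgene from those of the resident gene. Totals ran from 25563118 to 26636174 counts per sample over all 9 samples. Among the markers of other organs, the 19 root markers summed to 186, 174 and 90.2 CPM in 35S:CO and to 203, 122 and 132 CPM in Col-0, with 7 of them at 0 in all 6 samples. Nearly all of this came from the 5 that were tested, at 185.8, 174.2 and 89.96 CPM in 35S:CO and 202.4, 121.9 and 131.4 CPM in Col-0. Most of it was from PYK10 (log2 fold change -0.42, not called) and SCR (0.69, called higher). The other 14 had too few reads to be tested, so these sums say little about root content. The 15 seed markers reached at most 1.18 CPM in any of the 6 samples. The 7 flower organ markers summed to 7.30, 9.42 and 8.82 CPM in 35S:CO and to 0.378, 0.997 and 1.08 CPM in Col-0, most of it from the floral MADS-box gene SEP1.

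In edgeR's test over all 9 samples, 2261 genes (11.8% of those tested) passed an adjusted p under 0.05, of which 1211 (6.32%) were higher and 1050 (5.48%) lower in 35S:CO. These shares are the background for the counts given below, and a gene that passed is said to have risen or fallen. The median log2 fold change over all tested genes was -0.04. Samples of 35S:CO and Col-0 with the same replicate number deviated together, so the number was also used as a block. With the block in a fit of these 6 samples, 3309 of 18846 genes (17.6%) were called, and 2150 of the 2261 were among them. Counts given below with the block are from this fit unless stated, and the block in all 9 samples gave 3033 calls. Without the block the same 6 samples gave 1260 calls (6.69%), 907 higher and 353 lower. The replicates did not overlap between the genotypes for 5572 tested genes (29.1%), and 2243 of the called genes were among these. Of the called genes, 857 had a log2 fold change of at least 1 in size, 651 of them higher and 206 lower. Leaving out 35S:CO replicate 2 left 1159 calls, 871 higher and 288 lower, and leaving out Col-0 replicate 1 left 1373, 886 higher and 487 lower. Of 181 genes picked by rule besides CO, 128 were called in every one of 18 other fits and 0 changed direction in any. Among those described below, the calls of AHA3, BAM5, CHIL, CT-BMY, CYP94C1, ERD5, GASA4, IPT9, JAZ5, MYB111, NRT2.3, PHO1, PHT1;4, SUC2, SULTR1;2, SULTR2;1, TAA1, WRKY45, WRKY50, WRKY51 and XTH8 were lost when at least 1 sample was left out.

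Promoters are shown here because some genes in several of the groups below share the letters of a G-box, CACGTG, or of the ABA-responsive element core, ACGTGTC, close to their start. They are examples picked for holding these letters, and shares per group are not given. Of all genes that rose, 12.9% had a G-box and 8.26% an ABA-responsive element core. Each sequence runs 5′ to 3′ along the gene's strand, from 250 bases before the annotated gene start to 50 after it, in the RefSeq assembly TAIR10.1, and capitals mark matches on either strand to the motifs given in the next paragraph, other than the short CCACA. The first is from AFP3, an ABI5-binding protein gene (chr3:11384096-11384395, minus strand), and the second from PUB19, a U-box ubiquitin ligase gene (chr1:22198016-22198315, plus strand). The third is from the light-harvesting gene LHCB2.3 (chr3:10255656-10255955, plus strand), and the fourth from CAO, which encodes chlorophyllide a oxygenase (chr1:16851222-16851521, minus strand).
AFP3: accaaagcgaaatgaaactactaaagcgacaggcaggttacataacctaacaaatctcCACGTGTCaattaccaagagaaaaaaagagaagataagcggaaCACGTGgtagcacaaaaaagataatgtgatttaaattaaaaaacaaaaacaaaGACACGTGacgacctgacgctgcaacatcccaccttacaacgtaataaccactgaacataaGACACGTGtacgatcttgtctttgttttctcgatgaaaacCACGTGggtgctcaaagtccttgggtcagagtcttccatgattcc
PUB19: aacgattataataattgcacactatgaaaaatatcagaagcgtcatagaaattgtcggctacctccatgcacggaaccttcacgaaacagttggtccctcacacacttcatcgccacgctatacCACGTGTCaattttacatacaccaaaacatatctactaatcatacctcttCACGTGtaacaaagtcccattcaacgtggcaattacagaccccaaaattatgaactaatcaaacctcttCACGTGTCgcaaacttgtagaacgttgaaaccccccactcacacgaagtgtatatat
LHCB2.3: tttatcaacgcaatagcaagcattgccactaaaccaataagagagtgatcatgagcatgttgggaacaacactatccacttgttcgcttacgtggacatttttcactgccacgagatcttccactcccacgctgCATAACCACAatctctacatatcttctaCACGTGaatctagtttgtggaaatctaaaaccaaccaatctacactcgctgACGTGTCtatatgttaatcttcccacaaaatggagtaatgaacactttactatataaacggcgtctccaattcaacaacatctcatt
CAO: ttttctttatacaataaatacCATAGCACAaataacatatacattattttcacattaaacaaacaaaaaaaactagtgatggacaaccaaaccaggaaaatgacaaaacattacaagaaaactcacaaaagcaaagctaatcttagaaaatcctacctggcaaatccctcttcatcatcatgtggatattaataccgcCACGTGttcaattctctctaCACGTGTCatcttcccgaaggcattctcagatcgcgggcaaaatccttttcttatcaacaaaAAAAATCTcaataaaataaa
AFP3 holds 5 G-boxes, 3 of which run into an ABA-responsive element core, and PUB19 holds 3 with 2 such cores. LHCB2.3 has a G-box, a separate ABA-responsive element core and, upstream of the G-box, a match to the CONSTANS-responsive element with a spacer of 3, which contains CCACA. CAO has 2 G-boxes, a core, a CONSTANS-responsive element with a spacer of 2 and a CCA1-binding site. A match describes these letters only.

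Over the 19029 promoters that could be read, the G-box was present in 12.9% of the 1211 genes that rose, in 6.77% of the 1049 that fell and had a promoter, and in 8.77% of all. The ABA-responsive element core was in 8.26% of the genes that rose, 3.72% of those that fell and 4.99% of all, and it can overlap a G-box. CCACA was in 44.1% of the genes that rose, 33.8% of those that fell and 33.6% of all. The CONSTANS-responsive elements contain CCACA in part of their matches. The one with a spacer of 2, TGTGNNATG, was in 4.62% of the genes that rose, 4.10% of those that fell and 3.74% of all, and the one with a spacer of 3 in 6.69%, 4.39% and 4.64% of the same sets. The clock-related evening element AAAATATCT was in 3.47%, 4.58% and 2.99% of these sets, and the CCA1-binding site AAAAATCT in 10.2%, 7.44% and 8.24%. All letters were searched on both strands, and the shares were not tested.

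Most of the genes that rose farthest were low in Col-0. A late embryogenesis abundant family gene, LEA3 (AT1G02820), had 259, 300.3 and 279.8 CPM in 35S:CO, against 0.908, 1.70 and 0.939 CPM in Col-0 (log2 fold change 7.90 ± 0.21, adjusted p = 2.24e-08, edgeR). The 35S:CO samples lay within a narrow range, far above every Col-0 sample. AT1G62510, annotated as a bifunctional inhibitor and lipid-transfer protein, had 514, 694 and 520.4 CPM in 35S:CO and 13.4, 19.5 and 9.25 CPM in Col-0. PUB19 (AT1G60190), whose promoter is printed above and whose product is a ubiquitin ligase, had 34.4, 40.9 and 12.4 CPM in 35S:CO and 0.341, 0.664 and 0.487 CPM in Col-0. The lowest 35S:CO sample, replicate 3, was still far above every Col-0 sample.

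B-box genes of CO's own wider family stood among the 15 largest rises. BBX32 (AT3G21150), a light-signalling regulator, had 29.9, 37.04 and 24.5 CPM in 35S:CO and 0.416, 0.540 and 0.730 CPM in Col-0. BBX31 (AT3G21890) had 12.9, 14.9 and 6.53 CPM in 35S:CO and 0.151, 0.498 and 0.0348 CPM in Col-0, and BBX16 (AT1G73870), which like CO has a CCT domain, 27.8, 32.5 and 20.7 CPM in 35S:CO and 0.378, 0.664 and 0.557 CPM in Col-0. Their log2 fold changes were 5.74 ± 0.22, 5.68 ± 0.56 and 5.66 ± 0.25 (SE), and no sample of the genotypes overlapped. Several of the rises were of genes with a handful of reads in Col-0, for which only a bound can be given, set at 3 counts per Col-0 library. AT5G24880, a chromo domain protein gene with no read in any Col-0 sample, had a 35S:CO level at least 82.7-fold higher than that bound. The non-coding AT2G01422 was at least 50.4-fold higher, the sugar transporter gene SAG29 at least 46.7-fold and the uncharacterized AT3G24750 at least 41.1-fold.

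Falls included genes of redox control, sugar export and the cell wall, while some other called genes of these groups rose, as given below. ATMDAR2 (AT5G03630), annotated as a pyridine nucleotide-disulfide oxidoreductase and named for monodehydroascorbate reductase, an enzyme that regenerates ascorbate, had 1.34, 1.48 and 1.53 CPM in 35S:CO, against 37.4, 42.9 and 61.3 CPM in Col-0 (log2 fold change -5.02 ± 0.21, adjusted p = 2.58e-07, edgeR). SWEET12 (AT5G23660), a sucrose exporter gene of the phloem-loading pathway, had 14.9, 24.2 and 33.2 CPM in 35S:CO and 95.3, 153 and 111 CPM in Col-0. EXPA16 (AT3G55500), an expansin gene, had 3.63, 1.99 and 1.86 CPM in 35S:CO and 20.9, 25.04 and 13.9 CPM in Col-0. Each of these falls separated every 35S:CO sample from every Col-0 sample. The ubiquitin ligase gene LUL1 (AT5G03200) had 0.592, 0.664 and 0.583 CPM in 35S:CO and 6.77, 8.43 and 9.25 CPM in Col-0, and a UDP-glycosyltransferase gene, AT5G05890, had 2.68, 2.66 and 2.52 CPM in 35S:CO and 13.2, 17.1 and 14.4 CPM in Col-0. The other 10 falls included a chitinase gene (AT2G43590, log2 fold change -3.78), the arabinogalactan protein gene AGP7 (-2.84), the bZIP factor gene BZIP61 (-2.11) and the homeodomain-like gene MEE3 (-3.10). They also included the largest falls, AT1G64795 (-8.3 to -6.9 over the other fits) and AT5G03285 (-6.5 to -6.0). LUL1, AT5G03285 and ATMDAR2 lie near each other on chromosome 5. The 50 neighbouring tested genes from AT5G03300 to AT5G03770, which include ATMDAR2, held 13 called genes. Of these, 6 had a log2 fold change of at least 2 in size. Whether a difference of the 35S:CO line at this stretch contributes to these falls was not tested. In bulk seedlings, fewer cells of a type and less RNA per cell cannot be told apart for any of the genes that fell.

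**Figure D1:**
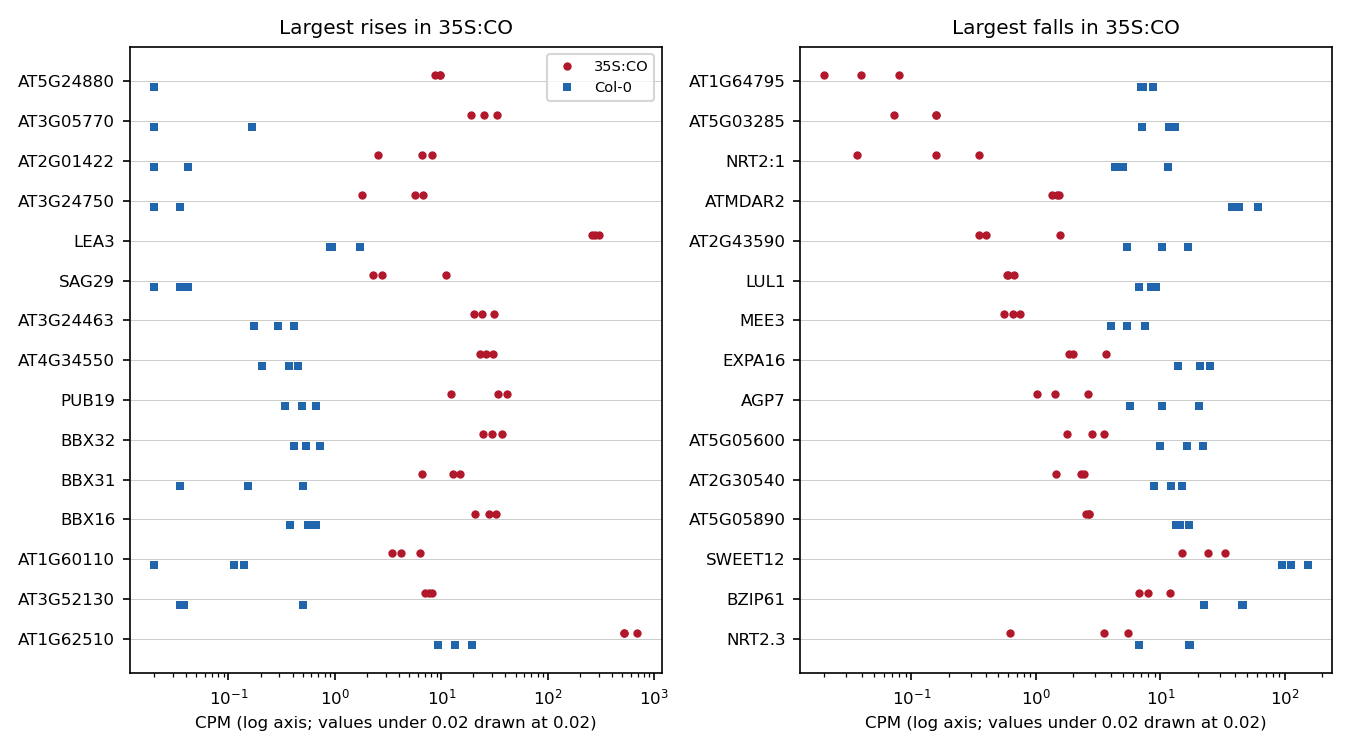
CPM per sample on a log axis for the 15 genes with the largest rise (left) and the 15 with the largest fall (right) outside the clock and flowering genes, with circles for 35S:CO and squares for Col-0. Each symbol is 1 sample, and no circle overlaps the squares of its gene: LEA3 sits between 259 and 300.3 CPM in 35S:CO, and ATMDAR2 between 1.34 and 1.53 CPM.

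Genes of ABA metabolism and signalling rose at several steps. Of 36 tested members of the list, 14 (38.9%) rose, against 6.32% of all tested genes, and the median log2 fold change was 0.64. ABF1, the single member that fell in the fit of all samples, had an adjusted p of 0.0421 there (edgeR) and of 0.0581 with the replicate block in the 6 samples. With the block 16 members rose, and without it in the 6 samples 11 did. Median and count kept their direction under the scalings and left-out samples tried, with 12 to 15 members called. The median log2 ratio was 0.87, 0.91 and 0.10 in the same-numbered pairs 1, 2 and 3, so pair 3 showed little of the shift.

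In synthesis, zeaxanthin epoxidase, ABA1 (AT5G67030), which makes the epoxycarotenoid precursors, had 268, 269 and 230.3 CPM in 35S:CO and 83.3, 78.2 and 74.1 CPM in Col-0 (log2 fold change 1.70 ± 0.10, adjusted p = 2.68e-06, edgeR). NCED3, the dioxygenase of the committed step in drought, had 7.65, 13.1 and 3.46 CPM in 35S:CO and 2.31, 2.74 and 2.19 CPM in Col-0, with replicate 3 closest to the wild type. The largest changes were on the breakdown side. CYP707A4 (AT3G19270), an ABA 8′-hydroxylase gene, had 33.8, 31.4 and 36.9 CPM in 35S:CO and 1.48, 1.66 and 1.98 CPM in Col-0, and CYP707A2 (AT2G29090), another of that family, 46.7, 60.6 and 105 CPM in 35S:CO and 4.39, 3.94 and 11.1 CPM in Col-0 (log2 fold changes 4.31 ± 0.21 and 3.44 ± 0.43). CYP707A1, of the same family, had 3.63, 3.05 and 1.42 CPM in 35S:CO and 3.03, 2.28 and 2.47 CPM in Col-0, values that overlapped.

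Among the signalling genes, AFP3 (AT3G29575) and AFP1 (AT1G69260), whose products bind ABI5 and are known as negative regulators, rose. AFP3 had 44.1, 37.5 and 25.8 CPM in 35S:CO and 10.1, 6.98 and 9.53 CPM in Col-0, and AFP1 had 3.27, 2.07 and 1.75 CPM in 35S:CO and 0.454, 0.498 and 0.800 CPM in Col-0. The phosphatase genes HAB1 (1.57) and ABI1 (1.20), the receptor gene PYR1 (0.87) and the homeodomain genes HB-12 (1.96) and HB-7 (1.33) also rose, with log2 fold changes in brackets. The phosphatase genes ABI2 (0.48), HAB2 (0.16), HAI2 (1.25) and HAI1 (-2.72) were not called. HAI1 was low, at 0.276, 0.0391 and 0 CPM in 35S:CO and 1.14, 0.374 and 0.591 CPM in Col-0. The receptor genes PYL4 (0.73), PYL5 (-0.14) and PYL6 (-0.03) and the bZIP gene ABI5 (-1.01) were not called either. PP2CA rose by 1.17, and its 35S:CO samples stood at 64.9, 69.3 and 21.4 CPM, with replicate 3 inside the Col-0 values of 21.2, 25.8 and 22.02 CPM. Of the response genes commonly read as ABA reporters, RAB18 had 7.89, 8.44 and 5.91 CPM in 35S:CO and 4.16, 7.52 and 5.04 CPM in Col-0, and RD29B 0.749, 0.469 and 0.438 CPM in 35S:CO and 0.189, 0.0415 and 0.557 CPM in Col-0, without passing the test. ABA1, NCED3, CYP707A1, HAB1, ABI1, PYR1, HB-12, HB-7, PP2CA, RAB18, RD29B and ABF1 were picked for mention after their values were seen. So were ABI2, HAB2, HAI1, HAI2, PYL4, PYL5, PYL6 and ABI5.

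Cold and dehydration genes, many of them ABA-responsive as well, were split. Of 24 tested members 2 rose and 5 fell, around a median of 0.02 that changed sign between settings. LEA3 and P5CS2, a proline synthesis gene (89.2, 97.5 and 92.4 CPM in 35S:CO, 43.6, 41.2 and 45.3 CPM in Col-0), rose. RD29A had 8.52, 7.46 and 11.6 CPM in 35S:CO and 24.6, 21.5 and 29.3 CPM in Col-0 (log2 fold change -1.45 ± 0.20, adjusted p = 0.00113, edgeR), and KIN1 had 3.79, 2.38 and 1.17 CPM in 35S:CO and 11.2, 8.26 and 7.65 CPM in Col-0. Both cold-induced genes were lower in every 35S:CO sample. ERD5, which encodes a proline-degrading enzyme, fell by 1.24. P5CS2 was named after its values were seen. Among 13 heat shock genes 2 rose, HSFB2A (2.41 ± 0.18) and MBF1C (1.14 ± 0.21).

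Salicylic acid genes of synthesis, signalling and output rose. Of 25 tested members 10 rose and 1 fell, with a median log2 fold change of 1.16, and with the replicate block in the 6 samples 14 rose. With the block in all 9 samples 11 rose, and in the 6 samples without it 8 did. In both genotypes sample 1 had the lowest summed level and sample 3 the highest: the list summed to 284, 498 and 618 CPM in 35S:CO samples 1, 2 and 3, against 126, 240 and 308 CPM in Col-0 samples 1, 2 and 3. The sums of the genotypes overlapped, while each 35S:CO sample was above the Col-0 sample of its number.

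The early regulators EDS1 and PAD4, lipase-like partners in immune signalling, rose. EDS1 had 30.1, 28.8 and 33.1 CPM in 35S:CO and 12.5, 14.1 and 14.6 CPM in Col-0 (log2 fold change 1.16 ± 0.10, adjusted p = 6.19e-05, edgeR), and PAD4 had 6.55, 7.89 and 9.59 CPM in 35S:CO and 1.82, 1.41 and 2.57 CPM in Col-0. ICS1, the isochorismate synthase of salicylic acid synthesis, had 12.9, 12.6 and 15.2 CPM in 35S:CO and 5.37, 6.98 and 8.07 CPM in Col-0, and PBS3, which acts after it, 1.93, 1.80 and 3.87 CPM in 35S:CO and 0.606, 0.457 and 0.487 CPM in Col-0. The transcription factor gene WRKY70 had 32.1, 49.03 and 62.1 CPM in 35S:CO and 5.94, 11.1 and 20.3 CPM in Col-0 (1.94 ± 0.37). Of the output genes, PR2 (annotated as BGL2), a secreted glucanase, had 13.7, 18.1 and 27.7 CPM in 35S:CO and 0.795, 1.45 and 4.49 CPM in Col-0 (3.12 ± 0.54). The salicylic acid hydroxylase genes rose too, DLO1 at least 12.5-fold and DMR6 by 1.68 ± 0.36. UGT74F1, a salicylic acid glucosyltransferase gene, fell by 1.30. SARD1, WAK1, ACD6 and NIMIN1 were called higher with the block only, at adjusted p of 0.00231, 9.87e-04, 0.00478 and 0.0364 in the 6 samples, against 0.145, 0.266, 0.405 and 0.207 in the same 6 samples without it (edgeR). ACD6, an ankyrin protein gene, had 60.2, 181 and 239 CPM in 35S:CO samples 1 to 3 and 9.27, 82.97 and 109.7 CPM in Col-0 samples 1 to 3. EDS1, ICS1, WRKY70, DMR6, UGT74F1 and the genes called with the block only were named after their values were seen.

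Calls in other defence families were fewer for their size, and some were near the share over all genes. Of 46 WRKY factor genes 10 (21.7%) rose, led by WRKY51 and WRKY50, low in Col-0, and by WRKY45 and WRKY46. WRKY46 had 4.81, 6.29 and 6.02 CPM in 35S:CO and 0.681, 0.914 and 2.26 CPM in Col-0. The WRKY count was 6 without 35S:CO replicate 2 and 6 without Col-0 replicate 1. Of 102 NLR immune receptor genes 9 (8.82%) rose, near the 6.32% of all tested genes, with a median of 0.04. Among them were AT5G58120 (32.2, 44.4 and 37.6 CPM in 35S:CO, 8.97, 14.99 and 13.01 CPM in Col-0) and the neighbours AT5G41740 and AT5G41750. Of 27 cysteine-rich receptor kinase genes 4 rose and 1 fell, around a median of -0.10, and with the block 6 rose and 3 fell. CRK4 had 6.43, 12.5 and 15.3 CPM in 35S:CO and 0.0757, 0.208 and 0.730 CPM in Col-0 (5.01 ± 0.53, adjusted p = 1.93e-04, edgeR), and CRK18 had 31.5, 50.9 and 40.8 CPM in 35S:CO and 9.50, 20.3 and 17.1 CPM in Col-0. In the list for pattern-triggered immunity and camalexin, BIK1, a receptor-associated kinase gene, was the 1 of 11 that rose (0.78 ± 0.11). In this list 3 rose with the block in the 6 samples, 1 with the block in all 9 and 2 without Col-0 replicate 3. The thionin gene THI2.2 had 36.4, 37.8 and 26.3 CPM in 35S:CO and 3.82, 3.49 and 2.75 CPM in Col-0 (3.32 ± 0.17).

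Jasmonate genes went in both directions, 5 of 34 up and 6 down, with a median of 0.01. The repressor gene JAZ9 (annotated as TIFY7) had 202, 265 and 221 CPM in 35S:CO and 47.5, 41.1 and 66.6 CPM in Col-0 (2.15 ± 0.17, adjusted p = 2.87e-05, edgeR). Other JAZ genes fell: JAZ5 had 0.592, 0.899 and 0.875 CPM in 35S:CO and 4.01, 1.54 and 4.14 CPM in Col-0, and JAZ6 13.5, 15.9 and 15.9 CPM in 35S:CO and 32.1, 26.2 and 56.2 CPM in Col-0. JMT, which methylates jasmonate, had 25.3, 24.2 and 27.2 CPM in 35S:CO and 5.60, 6.81 and 7.06 CPM in Col-0, and MYC4, a transcription factor of the response, 50.6, 59.4 and 38.9 CPM in 35S:CO and 19.4, 18.4 and 11.5 CPM in Col-0. VSP2, a storage protein and wound marker, rose to 76.9, 27.0 and 17.9 CPM in 35S:CO, against 4.50, 1.70 and 9.43 CPM in Col-0, with a wide spread in both. OPR3 and LOX3, which act in synthesis, fell by 0.61 and 0.45, and CYP94C1, which oxidises jasmonoyl-isoleucine, by 2.33. Without 35S:CO replicate 2, and in the 6 samples without a block, the list had 7 calls, 4 higher and 3 lower. JAZ6, JMT, MYC4, OPR3 and LOX3 were named after their values were seen.

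**Figure D2:**
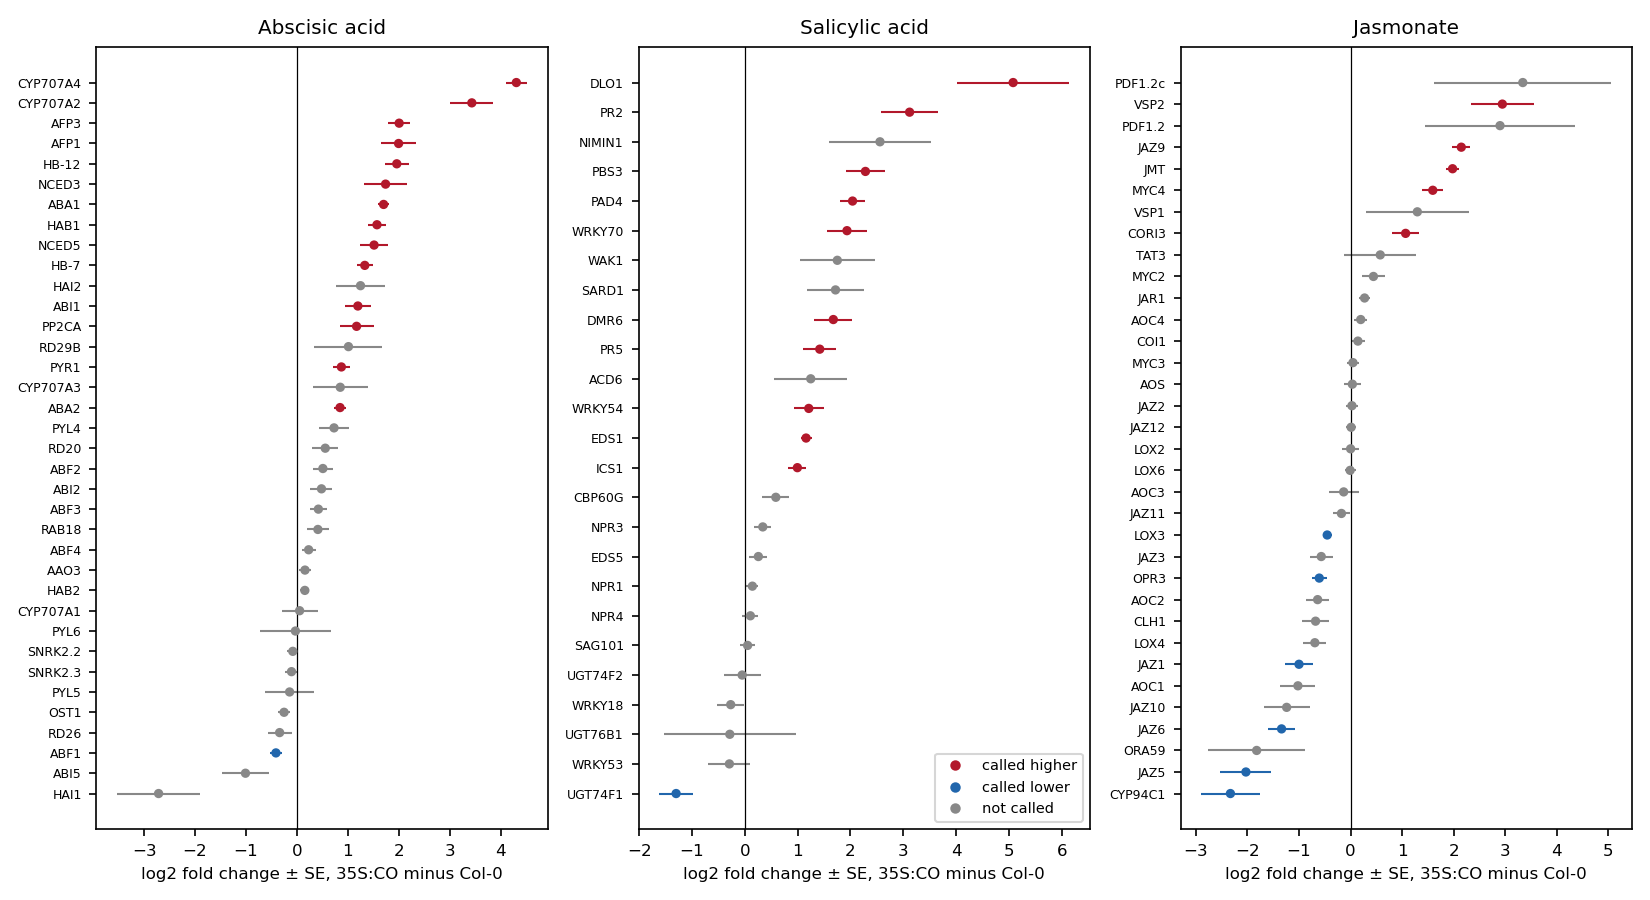
Log2 fold change of 35S:CO minus Col-0 with its standard error (x axis) for every tested member of the ABA (36), salicylic acid (25) and jasmonate (34) lists. Red marks genes called higher (14, 10 and 5), blue genes called lower (1, 1 and 6) and grey genes not called in edgeR's test.

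In the remaining hormone lists the share called was 27.3% for gibberellin, against 11.8% of all tested genes. It was 10% for auxin, 10.5% for cytokinin and for brassinosteroid, and 0 for ethylene. Of 30 auxin genes 2 rose and 1 fell. The amidosynthetase gene GH3.5 (annotated as WES1) had 13.4, 12.4 and 8.86 CPM in 35S:CO and 2.38, 0.706 and 3.97 CPM in Col-0, and IAA17, a repressor gene (AXR3), rose by 1.19 ± 0.15, while TAA1, of auxin synthesis, fell by 0.94 with overlapping samples. Of 22 gibberellin genes 3 rose and 3 fell, but 2 rose and 0 fell without 35S:CO replicate 2, and 2 rose and 1 fell without Col-0 replicate 2 or 3 and in the 6 samples without a block. The gibberellin-responsive GASA1 had 588, 971 and 772 CPM in 35S:CO and 129, 271 and 98.9 CPM in Col-0 (2.22 ± 0.36), and its relative GASA4 had 112, 66.3 and 99.4 CPM in 35S:CO and 201, 136 and 187 CPM in Col-0, so the pair moved in opposite directions. The DELLA repressor gene RGA1 rose by 0.61 ± 0.12. The brassinosteroid synthesis genes BR6OX2 and DWF1 fell by 0.79 and 0.71, 2 of 19 tested, and with the block 5 fell and 1 rose, while 4 fell without Col-0 replicate 3 or with library totals. Of 19 cytokinin genes CKX6, a degrading enzyme, rose by 0.82, and IPT9, a tRNA isopentenyltransferase, fell by 0.47. CKX6 alone was called with library totals, RLE scaling and without most single samples. With the block in the 6 samples 3 cytokinin genes rose and 1 fell, and with the block in all 9 samples 1 rose and 1 fell. Of 19 ethylene genes edgeR called 0, although 3 had an unadjusted p under 0.05, DESeq2 called 1 and the block gave 3.

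Genes of the light-harvesting antenna and of chlorophyll synthesis rose as selected members, not as a whole. Of 47 nuclear photosynthesis genes 8 (17.0%) rose and 1 fell, around a median of 0.13. The rises were largest in the LHCB2 genes, which encode near-identical antenna proteins of photosystem II, so that reads may be shared among them in counting. LHCB2.3 had 1085, 917 and 561 CPM in 35S:CO and 103, 84.5 and 66.9 CPM in Col-0 (3.33 ± 0.31, adjusted p = 8.56e-05, edgeR). LHCB2.1 had 1276, 1117 and 817 CPM in 35S:CO and 169, 168 and 163 CPM in Col-0, and LHCB2.2 1090.3, 851 and 524 CPM in 35S:CO and 202, 188 and 153 CPM in Col-0. No sample overlapped for these genes, and 35S:CO replicate 3 was the lowest of its genotype in each. LHCB4.3 fell by 0.88. The whole list summed to 216220, 216110 and 175470 CPM in 35S:CO and to 182180, 221100 and 165420 CPM in Col-0, so the totals overlapped. Without 35S:CO replicate 2 the list had 4 rises and 1 fall.

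In the list for chlorophyll and photoprotection 7 of 24 (29.2%) rose, and 11 did with the block, where 1 fell. HEMA1, the first dedicated enzyme of tetrapyrrole synthesis, had 528, 521 and 362 CPM in 35S:CO and 180.1, 165 and 99.7 CPM in Col-0 (1.67 ± 0.22, adjusted p = 7.84e-04, edgeR). CRD1, a subunit of the cyclase, had 2572, 2308 and 1911 CPM in 35S:CO and 1014, 940.4 and 759.6 CPM in Col-0. CAO (annotated as CH1), which makes chlorophyll b, the pigment bound by the antenna, had 185, 168 and 104 CPM in 35S:CO and 63.05, 64.3 and 43.4 CPM in Col-0. For all 3 genes the lowest 35S:CO sample lay above the highest Col-0 sample. GUN4 (1.16), which assists magnesium chelatase, and the early light-induced ELIP2 (1.99) also rose. GUN4 and LHCB4.3 were named after their values were seen.

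Light signalling genes were split, 3 of 19 up and 3 down, and 6 up and 5 down with the block. RUP2, a repressor of UV-B signalling, rose by 1.59 ± 0.22. PIF7, a shade factor, had 56.1, 66.02 and 57.2 CPM in 35S:CO and 27.7, 28.3 and 29.01 CPM in Col-0. HY5, the bZIP factor of photomorphogenesis, had 2.64, 2.97 and 4.81 CPM in 35S:CO and 9.08, 7.14 and 10.3 CPM in Col-0 (-1.34 ± 0.24, adjusted p = 0.00568, edgeR), and every 35S:CO sample was below every Col-0 sample.

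**Figure D3:**
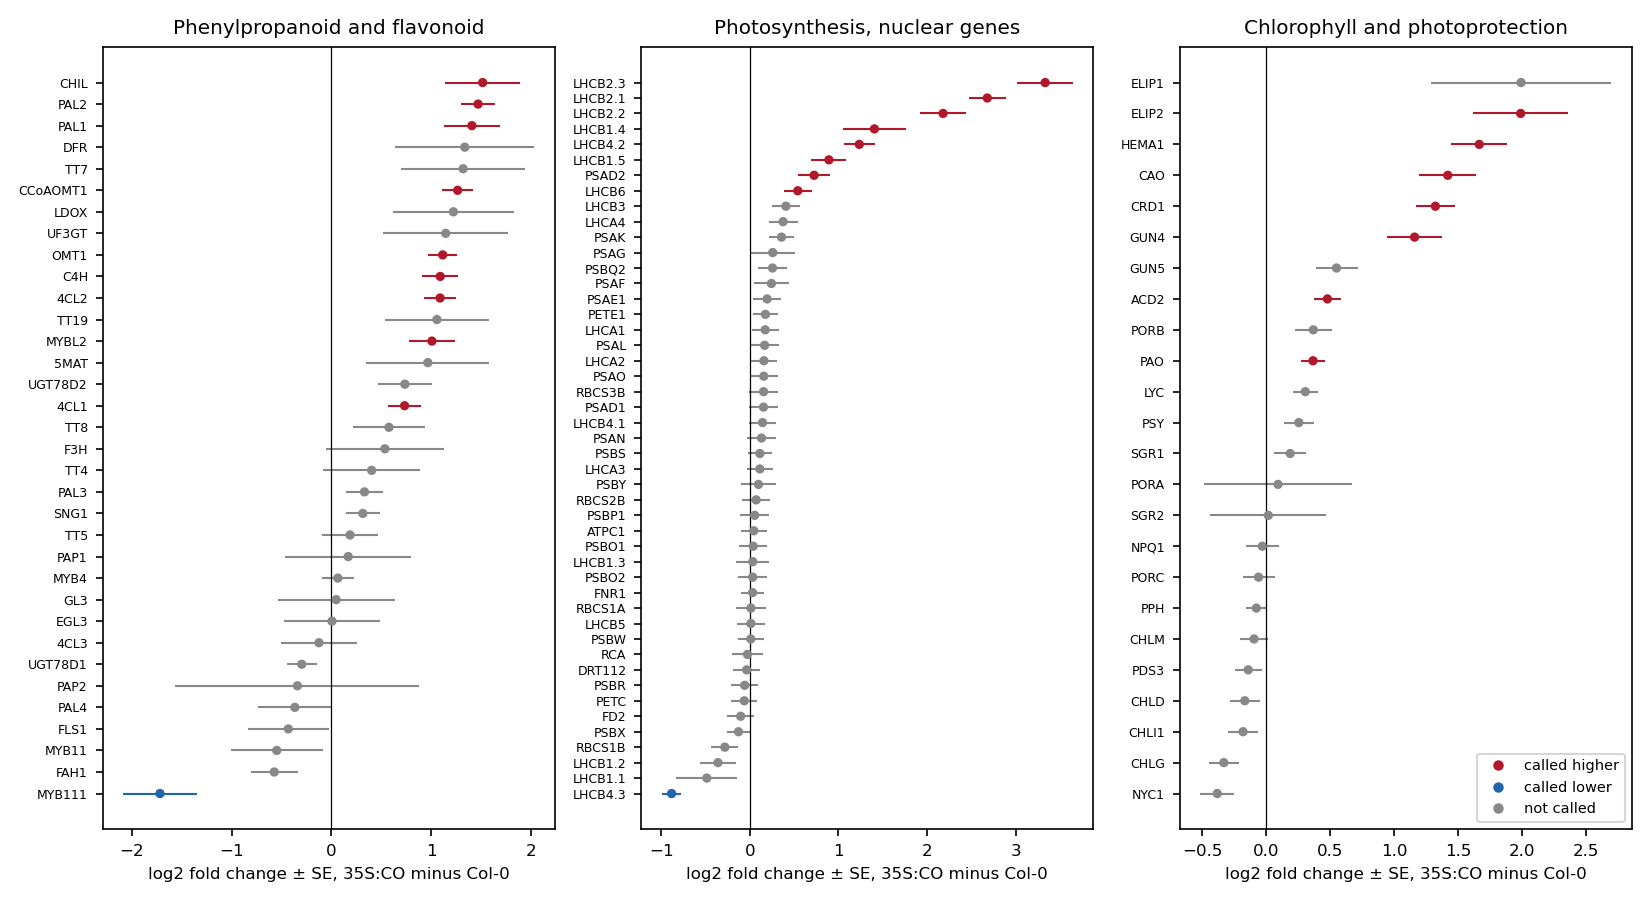
Log2 fold change of 35S:CO minus Col-0 with its standard error (x axis) for every tested member of the phenylpropanoid and flavonoid (34), nuclear photosynthesis (47) and chlorophyll and photoprotection (24) lists, in red where called higher (9, 8 and 7), blue where called lower and grey where not called. The LHCB2 genes stand apart at the top of the middle panel, between 2.18 and 3.33.

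Among genes of carbon metabolism, starch and sugar transport genes were called. Of 33 starch genes 6 rose and 1 fell, counting a granule-bound synthase that is also on the clock and flowering lists, and with the block 9 rose and 2 fell. The rises were of that synthase, of the starch synthase gene SS2 (0.40), named after its values were seen, and of 4 beta-amylase genes. BAM9 (annotated as BMY3) had 77.6, 81.8 and 77.7 CPM in 35S:CO and 14.2, 13.4 and 11.7 CPM in Col-0 (2.59 ± 0.12, adjusted p = 3.69e-07, edgeR), and BAM1 had 94.2, 113 and 99.6 CPM in 35S:CO and 41.97, 49.1 and 43.9 CPM in Col-0. The plastid enzyme gene CT-BMY rose by 0.73, and BAM5, low in Col-0, by 2.43. The BAM9 promoter also holds a G-box that runs into an ABA-responsive element core. Of 27 genes of sugar transport and starvation 3 rose and 2 fell, and with the block 6 rose and 5 fell. SWEET13 had 20.9, 27.3 and 16.96 CPM in 35S:CO and 1.02, 1.54 and 1.22 CPM in Col-0 (4.11 ± 0.34), and SWEET17, a vacuolar fructose carrier, 36.4, 30.4 and 23.8 CPM in 35S:CO and 11.7, 13.04 and 10.2 CPM in Col-0. SWEET12, which like SWEET13 exports sucrose, fell, as described above. The phloem sucrose carrier SUC2 had 131, 128 and 112 CPM in 35S:CO and 156, 208 and 157 CPM in Col-0, a fall of 0.49 on the log2 scale. Of the 7 companion cell markers, SUC2 and SWEET12 fell and AHA3 (annotated as HA3) rose by 0.56. SWEET11 (0.30), NAKR1 (0.16), APL (-0.07) and FTIP1 (-0.16), named after their values were seen, were not called. The 7 markers summed to 802, 896 and 827 CPM in 35S:CO and to 692, 1021 and 773 CPM in Col-0, which overlapped.

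Nitrate genes showed a low uptake carrier beside higher reduction genes. NRT2:1 (AT1G08090), the main inducible high-affinity nitrate carrier of roots, had 0.158, 0.352 and 0.0365 CPM in 35S:CO and 4.31, 11.5 and 5.04 CPM in Col-0 (-5.24 ± 0.57, adjusted p = 2.08e-04, edgeR). NRT2.3, a relative of it, had 3.51, 5.47 and 0.620 CPM in 35S:CO and 17.4, 16.9 and 6.75 CPM in Col-0. Both are known from roots. The root markers, most of which had too few reads to be tested, are given above. The part of root content in the values of NRT2:1 and NRT2.3 was not tested. NIA2, the major nitrate reductase, had 1732, 1989 and 1496 CPM in 35S:CO and 743, 863 and 637 CPM in Col-0, and BT1, a nitrate-induced BTB protein, 101, 103 and 56.1 CPM in 35S:CO and 19.1, 19.5 and 13.3 CPM in Col-0. LBD37, a nitrate-induced repressor, rose by 0.87. Of 30 tested members of the nitrate list, which does not hold NRT2.3, 4 rose and 1, NRT2:1, fell. With the block 10 rose and 2 fell, while 8 rose and 1 fell with DESeq2 or without Col-0 replicate 2. The additional rises with the block included NIR1, UPM1 and NRT1.1, the nitrite reductase, its cofactor enzyme and the dual-affinity carrier, at adjusted p of 0.0115, 0.0115 and 0.0109 in the 6 samples, against 0.159, 0.105 and 0.286 in the same 6 samples without it (edgeR), and they were named after their values were seen.

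Sulfur genes were called in both directions. APR2, the main adenylylsulfate reductase, had 495, 722 and 579 CPM in 35S:CO and 131, 179 and 138 CPM in Col-0 (2.00 ± 0.16, adjusted p = 3.20e-05, edgeR). LSU2, a low-sulfur marker, had 6.78, 7.42 and 7.44 CPM in 35S:CO and 16.8, 18.9 and 13.6 CPM in Col-0. The root sulfate uptake carrier SULTR1;2 fell by 0.69 and the vascular SULTR2;1 rose by 0.74, in a list of 17 with 3 rises and 3 falls, of which 2 rises and 1 fall were called without Col-0 replicate 2 and in the 6 samples without a block. The metal carrier NRAMP1 had 28.99, 33.9 and 28.3 CPM in 35S:CO and 9.16, 11.7 and 13.6 CPM in Col-0, and NAS3, of nicotianamine synthesis, rose by 1.05, together 2 of 14 iron genes. Among 16 phosphate starvation genes 2 rose and 2 fell, with adjusted p from 0.0496 for PHT1;4 to 0.0298 for PHO1 (edgeR), and in the fit of the 6 samples without a block the adjusted p of these genes ran from 0.0749 to 0.110. None of them was called without 35S:CO replicate 1. With limma-voom, and without any 1 of 35S:CO replicate 2, Col-0 replicate 2 and SUC2:CO replicates 1, 2 and 3, 1 was called, and 2 were without 35S:CO replicate 3.

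Phenylpropanoid genes of the first steps were among those that rose. Of 34 tested members 9 (26.5%) rose and 1 fell, with a median of 0.56. PAL1 and PAL2 encode phenylalanine ammonia-lyases, the entry enzymes. PAL2 had 268, 258 and 243 CPM in 35S:CO and 119, 90.98 and 68.0 CPM in Col-0 (1.47 ± 0.17, adjusted p = 3.15e-04, edgeR), and PAL1 428, 279 and 297 CPM in 35S:CO and 189, 89.9 and 100.1 CPM in Col-0. C4H (1.09), 4CL1 (0.73) and 4CL2 (1.09), the next enzymes, and the methyltransferase genes CCoAOMT1 (1.26) and OMT1 (1.11) rose as well. The related PAL3, PAL4 and 4CL3 were not called, at log2 fold changes of 0.33, -0.37 and -0.12. Later anthocyanin genes such as DFR and LDOX were called with the block in the 6 samples but not in the test over all 9. The block in the 6 samples raised the count to 20 higher and 2 lower, whereas the block in all 9 samples gave 10 higher and 2 lower. DFR had 259, 98.3 and 127 CPM in 35S:CO samples 1 to 3 and 130.4, 18.1 and 43.3 CPM in Col-0 samples 1 to 3, with an adjusted p of 0.00165 with the block in the 6 samples and 0.285 in the same 6 samples without it (edgeR). LDOX had 121, 46.6 and 58.7 CPM in 35S:CO and 63.8, 9.43 and 23.7 CPM in Col-0 (adjusted p 0.00232 with the block and 0.305 without, in the same samples). Sample 1 was the highest of its genotype for both genes in both genotypes. CHIL, a chalcone isomerase-like protein that aids flavonoid synthesis, rose by 1.51 ± 0.38. MYB111, an activator of flavonol synthesis, had 4.34, 2.54 and 4.89 CPM in 35S:CO and 16.3, 16.2 and 6.33 CPM in Col-0. C4H, 4CL1, 4CL2, 4CL3, PAL3, PAL4, CCoAOMT1, OMT1, DFR and LDOX were named after their values were seen.

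Glucosinolate genes were called in both directions. Of 38 tested members 4 (10.5%) fell and 2 (5.26%) rose, around a median of 0.05. Of all tested genes 5.48% fell and 6.32% rose. CYP79B2, which makes indole-3-acetaldoxime from tryptophan, had 39.4, 38.3 and 33.04 CPM in 35S:CO, against 87.4, 95.7 and 90.4 CPM in Col-0. Its close relative CYP79B3, with the same activity, had 36.8, 25.4 and 20.1 CPM in 35S:CO, against 63.99, 73.96 and 77.1 CPM in Col-0. CYP79F2, of the methionine-derived branch, had 4.65, 3.24 and 2.04 CPM in 35S:CO and 7.83, 14.04 and 9.04 CPM in Col-0, and MAM3 (annotated as IMS2), of chain elongation, 0.237, 0.234 and 0.292 CPM in 35S:CO and 2.72, 4.98 and 2.82 CPM in Col-0 (-3.75 ± 0.34, adjusted p = 7.14e-05, edgeR). CYP79F1, next in the same branch, had 175, 96.6 and 60.7 CPM in 35S:CO and 95.9, 79.2 and 86.5 CPM in Col-0, which overlapped. Of the other early genes of the methionine-derived branch, BCAT4 and MAM1 were not called, at log2 fold changes of 0.47 and 0.13. CYP79F1, BCAT4 and MAM1 were named after their values were seen.

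The redox genes called in the test over all 9 samples rose, except ATMDAR2. CAT2, the leaf peroxisomal catalase, had 4356, 5014 and 3851 CPM in 35S:CO and 741, 875 and 570.1 CPM in Col-0 (2.60 ± 0.18, adjusted p = 9.07e-06, edgeR). VTC2, of the committed step in ascorbate synthesis, had 647, 751 and 668 CPM in 35S:CO and 243, 316 and 249 CPM in Col-0, whereas ATMDAR2, which recycles ascorbate, fell as given above. With GR1 (0.59), 3 of 25 members rose and 1 fell, and with the block 4 rose and 3 fell, against 5 and 2 with DESeq2. Senescence-linked genes rose in 5 of 17 cases. PPDK, which recycles carbon and nitrogen in ageing leaves, had 105, 195 and 199 CPM in 35S:CO and 6.96, 15.2 and 21.2 CPM in Col-0 (3.52 ± 0.37), and the NAC factor gene ATAF1 34.1, 32.04 and 24.7 CPM in 35S:CO and 11.1, 12.1 and 19.8 CPM in Col-0. Leaving out 35S:CO replicate 2, 35S:CO replicate 3 or Col-0 replicate 1 left 3 senescence calls, as did the 6 samples without a block, and with the block 7 rose and 1 fell.

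**Figure D4:**
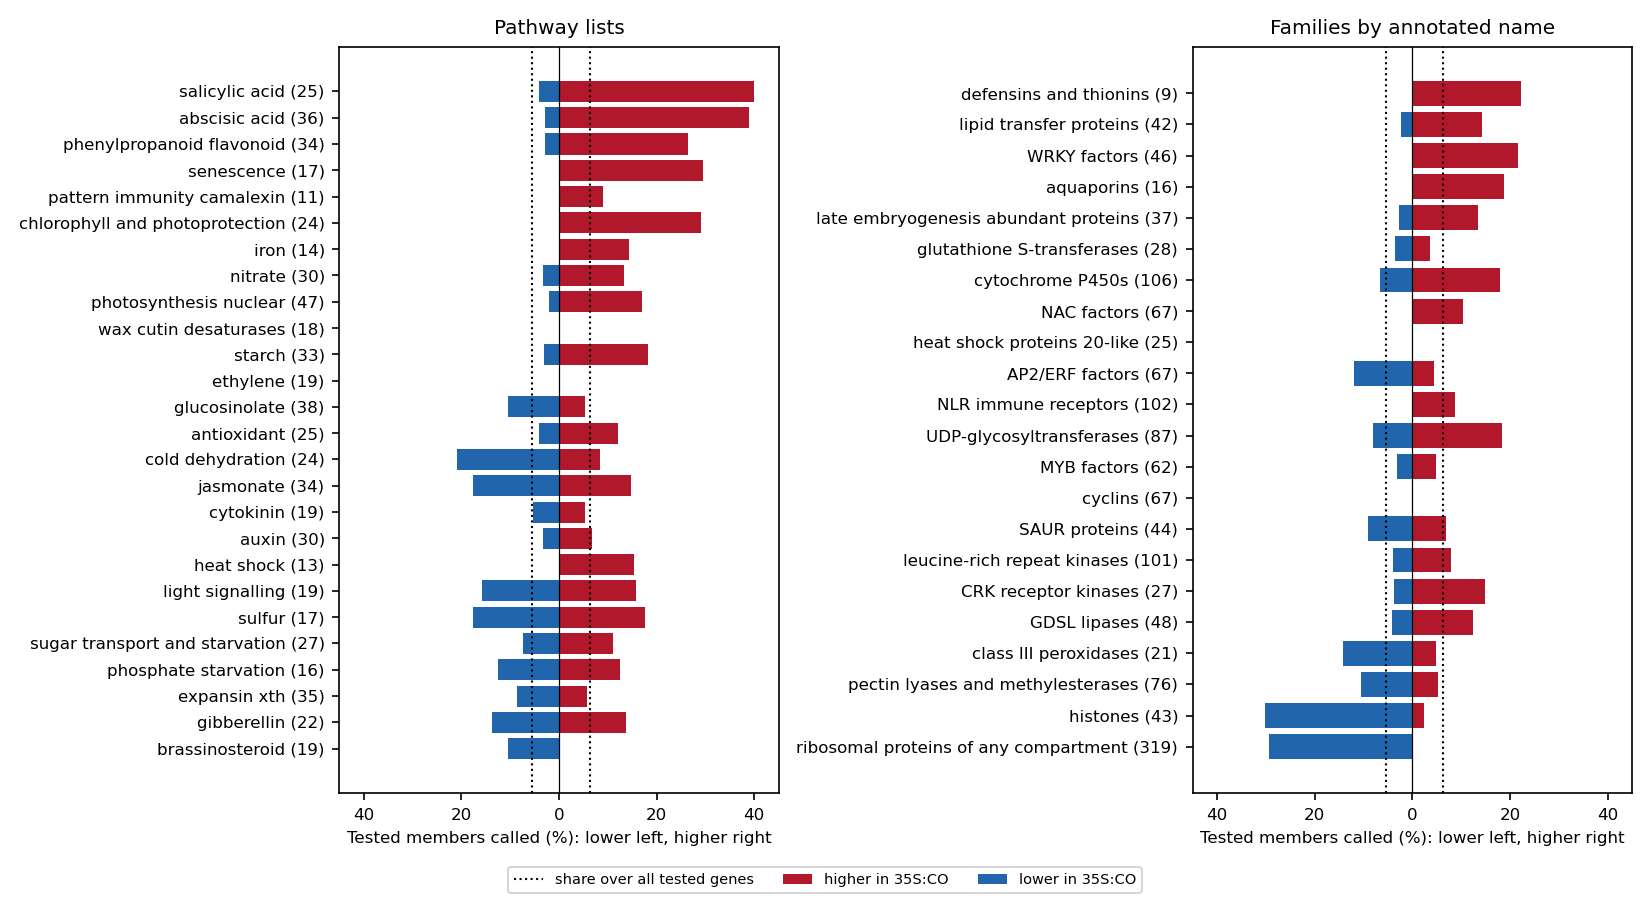
Share of tested members (in brackets, their number) that were higher (red, to the right) or lower (blue, to the left) in 35S:CO for each pathway list (left) and each family found by annotated name (right), ordered by median log2 fold change. Dotted lines mark the shares over all tested genes, 6.32% higher and 5.48% lower, and ribosomal protein and histone genes lie at the bottom.

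Among enzyme and surface families, 19 of 106 cytochrome P450 genes rose and 7 fell, and 16 of 87 UDP-glycosyltransferase genes rose and 7 fell. The share called was 24.5% and 26.4%, against 11.8% of all tested genes. The families that follow were nearer to that share. It was 10.4% for NAC factors, 16.4% for AP2/ERF factors and 18.8% for aquaporins. For the pectin genes it was 15.8%, for GDSL lipases 16.7% and for the expansin list 14.3%. With the block 17.6% of all genes were called. UGT73C1 had 12.8, 13.2 and 16.8 CPM in 35S:CO and 2.23, 2.70 and 2.75 CPM in Col-0 (2.48 ± 0.18). Without 35S:CO replicate 2 these counts were 12 and 5 for the P450 genes and 13 and 2 for the glycosyltransferase genes. Of 67 NAC factor genes 7 rose, led by NAC046 (2.79) and NAC2 (2.59). Of 67 AP2/ERF factor genes 3 rose and 8 fell, but 2 and 2 did in the 6 samples without the block or without 35S:CO replicate 2. Without Col-0 replicate 1, SUC2:CO replicate 2 or SUC2:CO replicate 3, 3 rose and 3 fell, and with the block 5 rose and 14 fell. Aquaporin genes rose in 3 of 16 cases, with PIP1A at 196, 204 and 176 CPM in 35S:CO and 59.6, 85.4 and 73.4 CPM in Col-0, and 1 was called without 35S:CO replicate 1 or 2 and 5 with the block or without Col-0 replicate 2. Of 76 pectin lyase and methylesterase genes 4 rose and 8 fell, and 6 of 48 GDSL lipase genes rose and 2 fell. With the block these counts were 9 and 17 for the pectin genes and 9 and 7 for the GDSL lipase genes. In the expansin and xyloglucan endotransglucosylase list of 35, 2 rose and 3 fell, and with the block 6 rose and 6 fell, and 3 to 9 members were called when 1 sample was left out. The expansin gene EXPA4 rose by 0.93 ± 0.15, whereas EXPA16 fell as given above. XTH32 had 114, 79.4 and 66.1 CPM in 35S:CO and 44.01, 21.97 and 28.4 CPM in Col-0 and rose, and XTH8, with 13.8, 9.45 and 7.07 CPM in 35S:CO and 28.04, 24.7 and 13.2 CPM in Col-0, fell with overlapping samples. The MYB factor gene MYB13 had 38.6, 33.2 and 40.4 CPM in 35S:CO and 6.43, 2.57 and 10.8 CPM in Col-0 (2.49 ± 0.40).

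Genes for ribosomal proteins and histones made up the largest set of small falls. Of 319 tested ribosomal protein genes of any compartment 94 (29.5%) fell, against 5.48% of all tested genes, and the median log2 fold change was -0.50. Their summed level was 44320, 34700 and 44080 CPM in 35S:CO and 63130, 51430 and 50270 CPM in Col-0, and no 35S:CO sample reached the lowest Col-0 sample. The median log2 ratio was -0.60, -0.61 and -0.23 in the same-numbered pairs 1, 2 and 3. The largest falls were below 2-fold, such as AT4G12600, an L7Ae family gene, with 49.1, 32.3 and 52.3 CPM in 35S:CO and 101, 75.2 and 81.6 CPM in Col-0 (-0.94 ± 0.20, adjusted p = 0.0132, edgeR).

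The number of ribosomal protein genes called turned on the fit and on single libraries, while the median stayed between -0.60 and -0.32 in every setting tried. With the block 196 fell and 2 rose, and without it in the 6 samples 7 fell. DESeq2 called 162 lower and 1 higher, and scaling by library totals left 38 falls. Leaving out 35S:CO replicate 2 left 7 falls, Col-0 replicate 1 left 15, 35S:CO replicate 1 left 21, and SUC2:CO replicates 1, 2 and 3 left 61, 20 and 30. Histone counts were unstable too. In the test over all 9 samples 13 of 43 fell and 1 rose, with a median of -0.34, and their sums were 2560, 2390 and 2496 CPM in 35S:CO and 3159, 3182 and 2778 CPM in Col-0. AT5G59970, a histone superfamily gene, had 45.2, 37.9 and 41.2 CPM in 35S:CO and 71.1, 66.1 and 58.4 CPM in Col-0 (-0.65 ± 0.10, adjusted p = 0.00262, edgeR). In the 6 samples without a block 1 histone gene was called, with RLE scaling 9 were and with no filter on low counts 6. Leaving out any 1 of 35S:CO replicates 1 and 2 and Col-0 replicates 1 and 2 left 2 histone calls, and 35S:CO replicate 3 left 6, and without SUC2:CO replicate 1, 2 or 3 there were 8, 3 and 5. For 67 cyclin genes edgeR called 0, with 6 at an unadjusted p under 0.05 and 1 called by DESeq2.

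**Figure D5:**
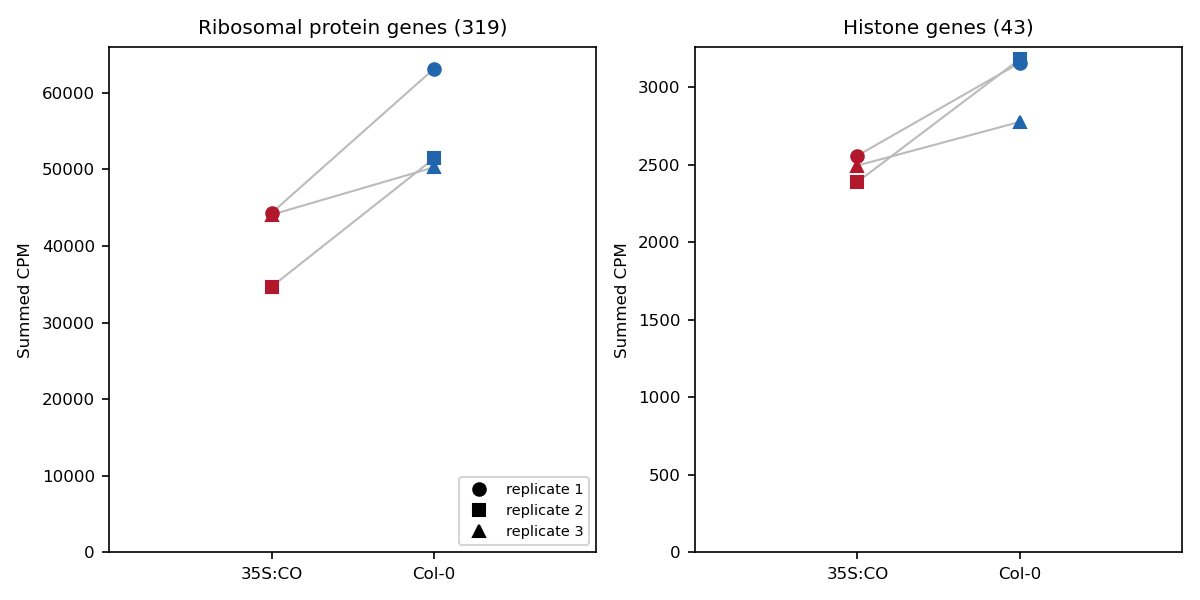
Summed CPM of the tested ribosomal protein genes (left) and histone genes (right) in each sample, with 35S:CO in red and Col-0 in blue, and grey lines joining samples with the same replicate number. All 3 lines lie lower at 35S:CO, at 34700 to 44320 CPM, against 50270 to 63130 CPM in Col-0 for the ribosomal protein genes.

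The line with CO in companion cells gives a scale for some of these levels. CO averaged 637 ± 53.2 CPM in the 3 samples of 35S:CO (SD). The mean was 53.3 ± 6.19 CPM in the 3 SUC2:CO samples and 9.20 ± 1.10 CPM in the 3 Col-0 samples. Some of the genes described did not pass the test of the difference between the lines, which does not show that they are equal. SAG29 averaged 5.33 ± 4.89 CPM in 35S:CO and 9.45 ± 1.21 CPM in SUC2:CO (adjusted p = 0.269 for the difference, edgeR), and PPDK 166 ± 53.3 CPM in 35S:CO and 109 ± 2.95 CPM in SUC2:CO (adjusted p = 0.224). Others differed between the lines. CAT2 averaged 4407 ± 583 CPM in 35S:CO and 969 ± 99.6 CPM in SUC2:CO (log2 difference 2.18, adjusted p = 3.75e-05, edgeR), JAZ9 229 ± 32.5 CPM in 35S:CO and 51.8 ± 2.15 CPM in SUC2:CO (2.15, 3.65e-05), and PAL2 256 ± 12.3 CPM in 35S:CO and 35.2 ± 2.05 CPM in SUC2:CO (2.86, 5.71e-06). ATMDAR2 averaged 1.45 ± 0.0992 CPM in 35S:CO and 58.9 ± 4.78 CPM in SUC2:CO (-5.34, 4.08e-07). The ribosomal gene AT4G12600 averaged 44.6 ± 10.8 CPM in 35S:CO. Its SUC2:CO mean was 28.7 ± 5.88 CPM and its Col-0 mean 85.8 ± 13.1 CPM. These comparisons use the 35S:CO samples again, and the lines differ in promoter, tag and the co-10 background.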

How the data were processed

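RNA was sequenced from 9 seedling samples. The authors deposited whole-number counts of reads per gene, with no normalization. Per the submitters' processing notes, the build was TAIR10 and the tools were FastQC, STAR, featureCounts and limma, with no versions given. Whether strand was used in counting is not given in the sources used here, so overlapping and antisense genes are uncertain. Libraries were strand-specific, per the labels' protocols.

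Analysis started from these deposited counts in R 4.3.3, where edgeR 4.0.16 filtered genes (filterByExpr), scaled libraries by TMM and fitted genotype over all 9 samples by quasi-likelihood. Benjamini-Hochberg adjustment of two-sided p-values covered the 19149 genes tested, and genes were called at an adjusted p under 0.05. CPM values use library sizes scaled by TMM. The SE of a log2 fold change came from its F statistic. A fold against a group with at most 3 counts in each library was computed against 3 counts per library. Reads carry no stated molecular identifiers, so that floor covers counting error only. Replicates of a genotype differed by more than sampling noise (chi-square per degree of freedom of at least 8.57).

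Replicate numbers come from the sample titles. Deviations from the genotype mean correlated across genes at 0.435, 0.302 and 0.248 between 35S:CO and Col-0 samples 1, 2 and 3, all above the limit of 0.1, and between -0.290 and -0.055 for unlike numbers, so the block was used beside the main fit. Alternatives were DESeq2 1.42.0, limma-voom (limma 3.58.1), RLE scaling, library totals, other filters and thresholds, the 6 samples alone, the block, and leaving out each sample. The fits were checked on simulated counts.

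Genes were matched to the RefSeq TAIR10.1 annotation (32548 of 32833). Genes, lists and families were chosen with earlier results of these data known. Of 896 list entries 13 were dropped because their names were unmatched. Families were found by patterns in annotated names, and 3 patterns were corrected after they were seen to catch other names. The rule for named genes takes, outside the clock and flowering lists, the 15 largest rises and 15 largest falls called in the same direction in the main fit and with the block in the 6 samples, with replicates that do not overlap and a mean log2 CPM no lower than 1. It adds up to 4 called members of each list or family with the largest change, and CO. Other genes are marked in the text as named after their values were seen.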

Additional observations from a re-analysis of the deposited data

How the results depend on the processing

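The number of genes called, 2261, was 1260 in the fit of 35S:CO and Col-0 only without a block, 857 with a log2 fold change of at least 1 and 925 at an adjusted p under 0.01. It ran from 1159 to 2167 when 1 sample was left out. Leaving out a sample from any genotype leaves fewer samples in the fit. With the replicate block the count was 3309 in the 6 samples and 3033 in all 9, and the other alternatives gave 1930 to 2961. The log2 fold change of CO ran from 6.02 to 6.22 and was called in every fit. Of the 181 other genes picked by rule, 0 lost their call with DESeq2, with the block in all 9 samples or with the block in the 6 samples, which the rule required of the largest rises and falls. RLE scaling lost 3, library totals 6, limma-voom 9, and the 6 samples without a block 44, and the cause was not tested. Leaving out a sample lost between 11 and 41 of them, most without 35S:CO replicate 2. The block also changed calls of list members that the text does not name. Genes named after their values were seen were not followed through every alternative.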

Other observations

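Called genes were spread over all chromosomes. In 378 windows of 50 neighbouring tested genes the number called ran from 0 to 14, with a median of 6. The highest number of called genes with a log2 fold change of at least 2 in size in a window was 6, between AT5G03300 and AT5G03770 on chromosome 5, a stretch that holds ATMDAR2. These windows were described without a test.

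Non-coding genes were called at different rates, against 11.8% of all tested genes, and the rates were not compared by a test. Of 303 long non-coding RNA genes 11 rose and 7 fell (5.94% called). Of 48 miRNA genes 7 rose and 3 fell (20.8%), and of 107 snoRNA genes 5 fell (4.67%). Of 99 plastid-encoded genes 1 fell, and all 133 plastid-encoded genes in the table summed to 13255, 12532 and 12958 CPM in 35S:CO and to 10935, 12658 and 13235 CPM in Col-0, which overlapped. Reads at a miRNA gene come from its precursor or an overlapping transcript and do not measure the mature miRNA.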
